A study of Rattus norvegicus with 8 samples.

Results

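The 35 genes described here build, supply and use the peroxisome, and they were taken by symbol from the probes of the array: 12 import factors (Pex genes), 3 membrane transporters and 20 peroxisomal enzymes, of 22459 genes and unnamed accessions tested in all. Catalase and Prdx5 were not among them. Pex11a, which acts in peroxisome division, is counted with the import factors. RNA came from primary neurons of the cortex and hippocampus of Sprague Dawley rats at embryonic day 18, grown for 7 days in vitro, and the study asked which genes respond to ADDL with and without CAT-SKL. ADDL are soluble oligomers of the Alzheimer's peptide amyloid-beta, and CAT-SKL is a form of the peroxide-degrading enzyme catalase that carries a peroxisomal targeting signal. Neurons received ADDL and then CAT-SKL (ADDL+CAT-SKL), CAT-SKL and then ADDL (CAT-SKL+ADDL), CAT-SKL alone or ADDL alone, each agent at 1 µM for 24 h, and each treated RNA (Cy5) was hybridised with RNA of vehicle-treated neurons (Cy3) on a two-colour Agilent array. The series' design text calls the same control untreated, and the labels do not say how long vehicle was applied or whether it was 1 pool. There were 2 arrays per treatment, 8 in all on 1 slide, with no dye swap and no vehicle array of its own. The labels call the arrays of a treatment biological replicates without naming cultures or litters, so the p-values measure only the spread between these samples, which may be technical. The cultures are mixed by region, and single and sequential treatments also lay in different rows of the slide. Between single and sequential treatments, slide row, length of treatment and the adding of a second agent therefore cannot be told apart.

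Peroxisomes are membrane-bound organelles that shorten very long and branched fatty acids, start the synthesis of ether lipids such as plasmalogens, and make and break down hydrogen peroxide. Their matrix enzymes are made in the cytosol and imported folded: Pex5 binds proteins that end in a serine-lysine-leucine type signal, the signal that gives CAT-SKL its name, and Pex7 binds those with an N-terminal signal. The loaded receptors dock on Pex13 and Pex14, a ring of ubiquitin ligases marks them for recycling, and an ATPase with its anchor pulls them out again. Inherited defects of import factors lead to Zellweger spectrum disorders and, in the brain, to loss of myelin and neurons.

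All values are log2 ratios of treated over vehicle signal unless stated otherwise, so 0 means no difference. The arrays had median signals of 87.5 to 127.5 in Cy5 and 104 to 111.5 in Cy3 over local backgrounds of 23.5 to 29, with 0 saturated spots, and their small number limits the precision. All 35 genes passed the filter on dim probes, and 31 were well above background in both channels on all 8 arrays. The exceptions were Ehhadh (2 arrays in Cy5 and 0 in Cy3), Dao (3 and 3), Acox2 (6 and 7) and Uox (7 and 8). The 2 CAT-SKL+ADDL arrays differed by no more than spot noise: over 13221 probes with 2 spots, their difference had an SD of 0.0855, against 0.0873 from spot noise alone, a ratio of 0.979, where the 27 other pairs of arrays had ratios of 1.27 to 2.24. Their mean therefore entered as 1 sample (7 in all), on the assumption that a lone sample has the spread of the other groups. Of the cell type markers, 8 of 10 neuron markers were measured and all 8 were above background in both channels on every array. So were 11 of 12 astrocyte markers. Of all spots, 73% to 81.5% were above background per array and channel, so such a call does not show which cell types were present.

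Peroxisomal genes differed little from vehicle, and 1 of 35 passed the test in any treatment. Genes were tested with limma over all 22459, with Benjamini-Hochberg adjustment within a comparison and a threshold of 0.05. After ADDL+CAT-SKL 0 of 35 passed, where 0.445% of all genes did. After CAT-SKL+ADDL 0 of 35 passed, where 0% did, and at an unadjusted p below 0.05 the counts were 7 of 35 and 11.3% of all genes. After CAT-SKL alone 1 of 35 passed, where 2.51% of all genes did, so the share among the peroxisomal genes (2.86%) was near the background. After ADDL alone 0 of 35 passed, where 0% did, and at an unadjusted p below 0.05 the counts were 8 of 35 and 19%. The gene that passed was Pex13, which rose after CAT-SKL. Between 21 and 24 of the 35 genes lay within 0.1 of vehicle in each treatment, and the median of the 35 was 0.00 in all 4 treatments, against medians of 0.00 over all genes. These small changes depend on the processing (normexp with an offset of 50, then loess). With the log ratios deposited by the authors, fewer genes lay within 0.1 of vehicle in all 4 treatments, and 8 of the 35 moved by more than 0.3 in some treatment. The median absolute log2 change of the 35 was 0.06 after ADDL+CAT-SKL, 0.07 after CAT-SKL+ADDL, 0.08 after CAT-SKL and 0.06 after ADDL, against 0.07 to 0.08 over all genes. Since vehicle was only ever in Cy3, the test is of a ratio against 0 and takes no account of how vehicle cultures vary, and a dye effect of a probe cannot be told apart from a response shared by all treatments. Because RNA came from whole cultures, fewer cells of a type and less RNA per cell cannot be told apart either.

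**Figure D1:**
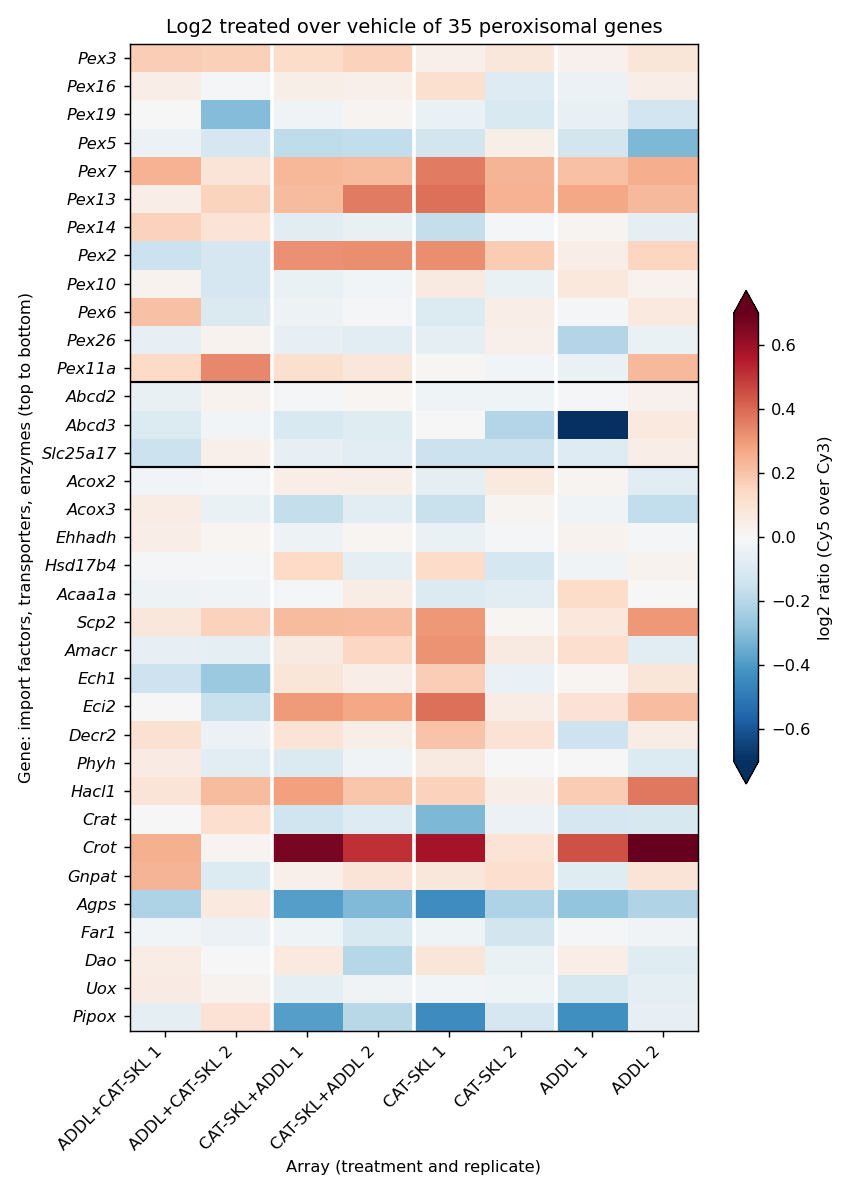
Log2 ratio of treated (Cy5) over vehicle (Cy3) signal for 35 peroxisomal genes (rows; import factors, transporters and enzymes from top to bottom, split by black lines) on the 8 arrays (columns, split by treatment). Most cells are near 0; Pex7, Pex13 and Crot are red on all 8 arrays, Agps is blue on 7, and Abcd3 is far below 0 on ADDL 1 alone (-1.32, beyond the end of the colour scale).

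The docking factors Pex13 and Pex14 sit in the peroxisomal membrane and receive the loaded receptors. Pex13 had spot signals of 374 and 402 in Cy5 on the first CAT-SKL array, against 270 and 274 for vehicle in Cy3 on the same spots. On the second CAT-SKL array they were 305 and 338 in Cy5, against 246.5 and 268 for vehicle. Its log2 ratios were 0.05 and 0.16 on the ADDL+CAT-SKL arrays, 0.22 and 0.36 on the CAT-SKL+ADDL arrays, 0.38 and 0.24 on the CAT-SKL arrays and 0.27 and 0.23 on the ADDL arrays. All 8 arrays were thus above 0, with ADDL+CAT-SKL at the low end. The rise after CAT-SKL was 0.31 ± 0.06 (SE, n = 2), which is 1.24-fold (limma, adjusted p = 0.0442). The other mean changes of Pex13 were 0.10 ± 0.06 after ADDL+CAT-SKL (adjusted p = 0.439), 0.29 ± 0.09 after CAT-SKL+ADDL (adjusted p = 0.252) and 0.25 ± 0.06 after ADDL (adjusted p = 0.0948). The call after CAT-SKL held in 6 of 16 alternatives. These include the runs without either CAT-SKL+ADDL array, which could not change it because these arrays counted as 1 sample. It was lost without either CAT-SKL array (adjusted p = 0.485 without the first and 0.0654 without the second), without either ADDL array (adjusted p = 0.0679 each) and without either ADDL+CAT-SKL array (adjusted p = 0.0651 each). Pex14 pointed both ways, at 0.16 and 0.09 on the ADDL+CAT-SKL arrays, -0.08 and -0.05 on CAT-SKL+ADDL, -0.17 and -0.02 on CAT-SKL and 0.02 and -0.07 on ADDL.

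The receptors Pex5 and Pex7 lay on opposite sides of vehicle. Pex7, whose cargo includes Acaa1a, Phyh and Agps, had log2 ratios of 0.25 and 0.09 on the ADDL+CAT-SKL arrays, 0.23 and 0.22 on the CAT-SKL+ADDL arrays, 0.36 and 0.24 on the CAT-SKL arrays and 0.20 and 0.26 on the ADDL arrays. All 8 were above 0, and the treatments overlapped. Its mean changes were 0.17 ± 0.06 after ADDL+CAT-SKL (adjusted p = 0.217), 0.23 ± 0.09 after CAT-SKL+ADDL (adjusted p = 0.373), 0.30 ± 0.06 after CAT-SKL (adjusted p = 0.0503) and 0.23 ± 0.06 after ADDL (limma, adjusted p = 0.114). Pex5, the receptor for signals like that of CAT-SKL, was below 0 on 7 of 8 arrays: -0.04 and -0.12 on ADDL+CAT-SKL, -0.18 and -0.17 on CAT-SKL+ADDL, -0.13 and 0.04 on CAT-SKL and -0.13 and -0.31 on ADDL. Its smallest p belonged to ADDL, with a mean change of -0.22 ± 0.07 (limma, adjusted p = 0.145). With each array centred on its median in place of loess, Pex5 was above 0 on 4 of 8 arrays and at 0.09 after CAT-SKL.

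The ring ligases Pex2 and Pex10 ubiquitinate the receptors. Pex2 had log2 ratios of -0.15 and -0.12 on the ADDL+CAT-SKL arrays, 0.32 and 0.33 on the CAT-SKL+ADDL arrays, 0.32 and 0.18 on the CAT-SKL arrays and 0.04 and 0.15 on the ADDL arrays. The ADDL+CAT-SKL arrays were the only ones below 0. The mean change was -0.13 ± 0.06 after ADDL+CAT-SKL (adjusted p = 0.301), 0.32 ± 0.08 after CAT-SKL+ADDL (adjusted p = 0.225), 0.25 ± 0.06 after CAT-SKL (adjusted p = 0.0642) and 0.10 ± 0.06 after ADDL (limma, adjusted p = 0.431). Pex10 lay between -0.12 and 0.07 on all 8 arrays.

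Of the factors that place proteins into the peroxisomal membrane, Pex3 had the smallest p of the 35 genes after ADDL+CAT-SKL. Its log2 ratios were 0.17 and 0.17 on the ADDL+CAT-SKL arrays, 0.13 and 0.16 on CAT-SKL+ADDL, 0.04 and 0.08 on CAT-SKL and 0.03 and 0.09 on ADDL. The sequential treatments thus lay above both single ones without overlap, although the change after ADDL+CAT-SKL, 0.17 ± 0.05, did not pass (limma, adjusted p = 0.152). Pex16, with which it works, stayed between -0.09 and 0.11. Pex19, the chaperone of membrane proteins, lay between -0.30 and 0.02, its lowest value being the second ADDL+CAT-SKL array. The exporter pair, the ATPase subunit Pex6 and its anchor Pex26, lay between -0.10 and 0.21 and between -0.21 and 0.04, and Pex26 was at -0.53 after ADDL with the deposited log ratios. Pex11a, which elongates peroxisomes before they divide, was at 0.14 and 0.34 on ADDL+CAT-SKL, 0.11 and 0.08 on CAT-SKL+ADDL, 0.01 and -0.02 on CAT-SKL and -0.04 and 0.23 on ADDL. Its change after ADDL+CAT-SKL was 0.24 ± 0.08 (limma, adjusted p = 0.169).

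The promoters of Pex7 and Pex13 are shown because these import factors had the highest mean changes of the 12 after CAT-SKL and after ADDL and were above 0 on all 8 arrays. After CAT-SKL+ADDL Pex2 was higher than both, and after ADDL+CAT-SKL Pex11a and, narrowly, Pex3 were. The printed promoters run from 250 bases before to 50 after the annotated start of the gene, 5′ to 3′ on the gene's strand, from RefSeq (GRCr8), which had 32 of the 35 genes. The Pex7 promoter is chr1:16466255-16466554 (minus strand) and the Pex13 promoter is chr14:101822318-101822617 (minus strand). Capitals mark the motifs that were found.
Pex7: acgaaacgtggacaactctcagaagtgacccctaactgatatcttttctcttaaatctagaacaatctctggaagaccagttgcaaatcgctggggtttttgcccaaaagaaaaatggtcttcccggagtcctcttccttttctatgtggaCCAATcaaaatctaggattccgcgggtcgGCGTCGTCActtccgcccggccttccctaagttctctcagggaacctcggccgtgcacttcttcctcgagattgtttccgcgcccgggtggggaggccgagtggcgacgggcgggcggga
Pex13: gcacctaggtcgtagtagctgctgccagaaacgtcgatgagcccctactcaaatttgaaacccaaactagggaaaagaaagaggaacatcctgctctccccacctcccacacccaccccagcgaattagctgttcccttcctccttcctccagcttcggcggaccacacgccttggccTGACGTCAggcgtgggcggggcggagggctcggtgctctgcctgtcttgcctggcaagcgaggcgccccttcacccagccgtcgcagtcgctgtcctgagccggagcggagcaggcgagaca
The search covered both strands for 7 motifs, and overlapping motifs were both counted. In Pex13 it found TGACGTCA, the cyclic AMP response element, 72 bases before the start. That motif stands in 1.83% of 33469 rat promoters of the same length and in 2 of the 32 peroxisomal ones (Pex13 and Acox3). Pex7 held CCAAT 99 bases before the start, a box found in 37.5% of all promoters and in 14 of the 32. Pex7 also held the antioxidant response core TGACNNNGC (12.1% of all promoters, 3 of 32), which reads as its reverse complement on the printed strand, 70 bases before the start. A match describes letters only and shows no binding.

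**Figure D2:**
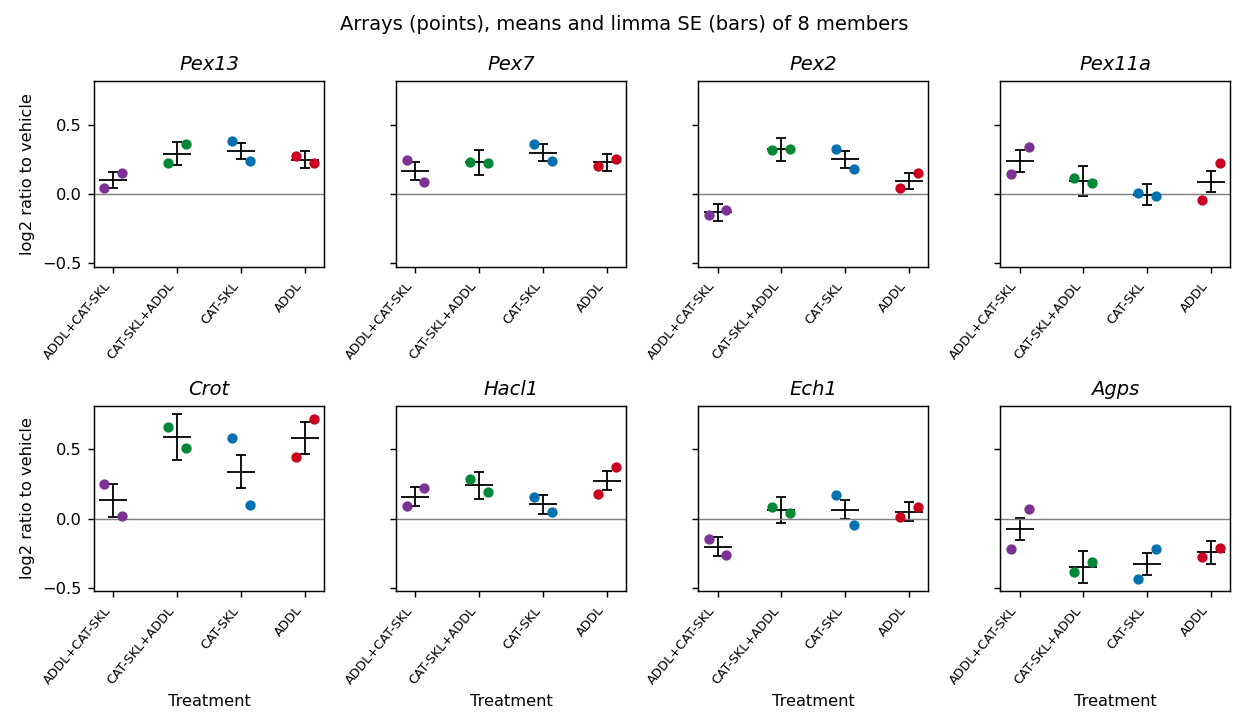
Log2 ratio to vehicle on each array (points) with the treatment mean (horizontal line) and the standard error from limma (bars) for Pex13, Pex7, Pex2, Pex11a, Crot, Hacl1, Ech1 and Agps, with 2 arrays per treatment. Pex13, Pex7, Crot and Hacl1 lie above 0 throughout, and Pex2 and Ech1 fall below 0 on both ADDL+CAT-SKL arrays.

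The enzymes had their highest values at Crot, which attaches medium-chain acyl groups to carnitine so that they can leave the peroxisome. Its spot signals were 174.5 and 219 in Cy5 on the first ADDL array, against 144.5 and 142 for vehicle, and 251 and 274 on the second, against 153 and 160 for vehicle. The log2 ratios were 0.25 and 0.02 on the ADDL+CAT-SKL arrays, 0.67 and 0.51 on the CAT-SKL+ADDL arrays, 0.58 and 0.10 on the CAT-SKL arrays and 0.44 and 0.72 on the ADDL arrays. All 8 arrays were above 0, and the 2 CAT-SKL arrays differed from each other by 0.49. The mean change was 0.13 ± 0.12 after ADDL+CAT-SKL (adjusted p = 0.624), 0.59 ± 0.17 after CAT-SKL+ADDL (adjusted p = 0.246), 0.34 ± 0.12 after CAT-SKL (adjusted p = 0.149) and 0.58 ± 0.12 after ADDL (limma, adjusted p = 0.0742). The ADDL value stayed at 0.58 and passed with either CAT-SKL array left out, which gives the same fit for ADDL and so is a single outcome. With either ADDL array left out it was 0.44 or 0.72 and did not pass. Crat, the acetyl-carnitine enzyme, lay on the other side in 3 treatments, at 0.00 and 0.12 on ADDL+CAT-SKL, -0.14 and -0.09 on CAT-SKL+ADDL, -0.31 and -0.04 on CAT-SKL and -0.12 and -0.11 on ADDL.

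Crot and the astrocyte markers were high on the same arrays. The median log2 ratio of 11 astrocyte markers was 0.33 and -0.02 on the ADDL+CAT-SKL arrays, 1.19 and 1.13 on CAT-SKL+ADDL, 1.23 and 0.27 on CAT-SKL and 0.57 and 1.19 on ADDL. All 11 were above 0 on 6 arrays, 8 on the second CAT-SKL array and 3 on the second ADDL+CAT-SKL array, and single markers ranged from -0.19 to 1.69. In each treatment 0 of 11 passed against vehicle. At an unadjusted p below 0.05, 0 of 11 were higher after ADDL+CAT-SKL (7.99% of all genes), 8 after CAT-SKL+ADDL (5.35%), 8 after CAT-SKL (9.6%) and 11 after ADDL (9.84%). After ADDL+CAT-SKL, CAT-SKL and ADDL, the array of the pair that was higher in the markers was also higher in Crot, while the CAT-SKL+ADDL arrays differ by no more than spot noise. That order within pairs was not particular to Crot, since Eci2, Ech1, Decr2 and Pex7, among others, had it too. Oligodendrocyte lineage markers (10 of 10 measured) had medians of 0.06 and -0.11 on the ADDL+CAT-SKL arrays, 0.63 and 0.67 on CAT-SKL+ADDL, 0.68 and 0.18 on CAT-SKL and 0.28 and 0.31 on ADDL, and 3 of the 10 (Olig2, Pdgfra and Sox10) rose after CAT-SKL. Microglia markers (9 of 10) had medians between -0.13 and 0.16, and 1 of the 9, Fcer1g, rose after CAT-SKL by 0.57 ± 0.07 (limma, adjusted p = 0.0262). These 4 markers are named because they passed, where 2.51% of all genes did after CAT-SKL, and other markers of both lists went the other way. Mean changes after CAT-SKL ran from -0.12 to 1.19 over the oligodendrocyte lineage markers and from -0.19 to 0.57 over the microglia markers. On the first CAT-SKL array 10 of 10 and 7 of 9 were above 0, and on the second 6 of 10 and 4 of 9. Neuron markers had medians between -0.19 and 0.06. The part of other cell types in the values of Crot and the other peroxisomal genes was not tested.

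**Figure D3:**
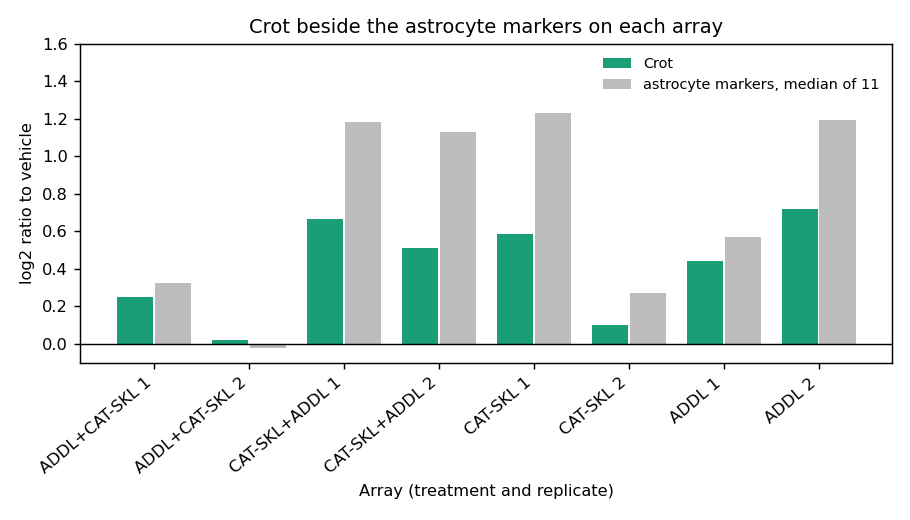
Log2 ratio to vehicle of Crot (green) beside the median of 11 astrocyte markers (grey) on each of the 8 arrays; bars start at 0 and show single arrays without error. Both are low on the ADDL+CAT-SKL arrays and on the second CAT-SKL array, and the markers exceed Crot on every array but the second of ADDL+CAT-SKL. Crot is highest on the second ADDL array (0.72, markers 1.19) and the markers on the first CAT-SKL array (1.23, Crot 0.58).

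Ether lipid synthesis starts with Gnpat, Agps and Far1, of which Agps, the alkyl-DHAP synthase, was the lowest. Its log2 ratios were -0.22 and 0.07 on the ADDL+CAT-SKL arrays, -0.39 and -0.31 on CAT-SKL+ADDL, -0.44 and -0.22 on CAT-SKL and -0.27 and -0.21 on ADDL. It was below 0 on 7 of 8 arrays, with the second ADDL+CAT-SKL array above. The mean change was -0.07 ± 0.08 after ADDL+CAT-SKL (adjusted p = 0.708), -0.35 ± 0.12 after CAT-SKL+ADDL (adjusted p = 0.302), -0.33 ± 0.08 after CAT-SKL (adjusted p = 0.0741) and -0.24 ± 0.08 after ADDL (limma, adjusted p = 0.17). Gnpat, the acyltransferase of the step before, ranged from -0.09 to 0.24, both on ADDL+CAT-SKL arrays. Far1, which supplies the fatty alcohol, was below 0 on all 8 arrays, where 8% of all genes were, and lay between -0.13 and -0.02. The log ratios deposited by the authors put it at -0.43 after CAT-SKL.

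The promoters of Crot and Agps are shown because these enzymes had the highest and the lowest mean changes among the enzymes after CAT-SKL+ADDL and after CAT-SKL. The Crot promoter is chr4:26052874-26053173 (plus strand) and the Agps promoter is chr3:81154349-81154648 (plus strand), both from RefSeq (GRCr8), with motifs in capitals.
Crot: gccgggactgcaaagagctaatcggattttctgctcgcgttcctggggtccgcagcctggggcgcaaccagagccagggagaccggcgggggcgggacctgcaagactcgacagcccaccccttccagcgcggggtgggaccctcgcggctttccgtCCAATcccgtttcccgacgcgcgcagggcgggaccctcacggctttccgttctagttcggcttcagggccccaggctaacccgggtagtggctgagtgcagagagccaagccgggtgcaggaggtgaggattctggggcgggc
Agps: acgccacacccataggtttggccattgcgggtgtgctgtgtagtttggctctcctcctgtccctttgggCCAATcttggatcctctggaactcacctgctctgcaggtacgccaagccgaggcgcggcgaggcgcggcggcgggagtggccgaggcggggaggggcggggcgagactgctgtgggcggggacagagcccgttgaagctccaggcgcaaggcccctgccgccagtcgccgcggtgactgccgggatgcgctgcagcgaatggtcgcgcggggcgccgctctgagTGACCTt
Both held a CCAAT box, 93 bases before the start in Crot and 181 in Agps. Agps also held, as TGACCT on the printed strand, the nuclear receptor core site AGGTCA, 43 bases after the start, which stands in 16.2% of all promoters and in 7 of the 32. The direct repeat that the lipid sensors PPAR and RXR bind, AGGTCA followed after 1 base by AGGTCA, was in 0 of the 32 promoters and in 18 of 33469 (0.0538%). The E-box CACGTG was in 0 of 32 (6.42% of all), and the nuclear respiratory factor site, GCGC followed after 1 base by TGCGC, in 4 of 32 (4.25% of all). Peroxisomal promoters had a median GC content of 61.0%, against 51.7% over all promoters.

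Beta-oxidation enzymes centred on vehicle: the median of 7 genes was -0.01 after ADDL+CAT-SKL, 0.04 after CAT-SKL+ADDL, 0.00 after CAT-SKL and 0.01 after ADDL. Scp2, a thiolase and sterol carrier, had log2 ratios of 0.08 and 0.16 on ADDL+CAT-SKL, 0.22 and 0.21 on CAT-SKL+ADDL, 0.30 and 0.01 on CAT-SKL and 0.07 and 0.30 on ADDL, all above 0. Its mean changes of 0.12 to 0.22 did not pass in any treatment. Amacr, the racemase for branched acyl chains, reached 0.31 and 0.06 on the CAT-SKL arrays and lay between -0.07 and 0.15 elsewhere. The branched-chain oxidases Acox2 and Acox3 lay between -0.08 and 0.07 and between -0.17 and 0.05. With the deposited log ratios Acox2 was at -0.61 after ADDL+CAT-SKL and 0.48 after CAT-SKL, and Acox3 at -0.36 after CAT-SKL+ADDL. The bifunctional enzyme Hsd17b4 lay between -0.13 and 0.14, with its arrays on opposite sides of 0 within CAT-SKL+ADDL, CAT-SKL and ADDL. The thiolase Acaa1a lay between -0.10 and 0.13. Ehhadh, the other bifunctional enzyme, was not well above background in vehicle on any array, and its ratios lay between -0.05 and 0.05, against treatment means of -0.23 to 0.47 with the deposited log ratios.

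The auxiliary enzymes Ech1, Eci2 and Decr2, which handle double bonds, gave no change that passed. Ech1 had log2 ratios of -0.15 and -0.26 on the ADDL+CAT-SKL arrays, 0.08 and 0.05 on CAT-SKL+ADDL, 0.17 and -0.04 on CAT-SKL and 0.02 and 0.09 on ADDL. The ADDL+CAT-SKL arrays lay below all others, and their mean change was -0.20 ± 0.07 (limma, adjusted p = 0.179). Eci2 was at 0.00 and -0.16 on ADDL+CAT-SKL, 0.30 and 0.27 on CAT-SKL+ADDL, 0.39 and 0.05 on CAT-SKL and 0.10 and 0.22 on ADDL, so the ADDL+CAT-SKL arrays were the lowest for this gene too. Decr2 lay between -0.14 and 0.20, with a mean of 0.15 after CAT-SKL that was 0.65 with the deposited log ratios. Of the alpha-oxidation pair that breaks down phytanic acid, Hacl1 was above 0 on all 8 arrays, at 0.09 and 0.22 on ADDL+CAT-SKL, 0.29 and 0.20 on CAT-SKL+ADDL, 0.16 and 0.05 on CAT-SKL and 0.18 and 0.37 on ADDL. Its highest mean change followed ADDL, at 0.27 ± 0.07 (limma, adjusted p = 0.0989), but its dimmer probe was lowest there, at 0.11. Phyh, the hydroxylase of the same pathway, lay between -0.10 and 0.06.

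The oxidases Dao, Uox and Pipox make hydrogen peroxide from their substrates. Pipox, which oxidises pipecolic acid and sarcosine, had log2 ratios of -0.07 and 0.10 on ADDL+CAT-SKL, -0.38 and -0.19 on CAT-SKL+ADDL, -0.44 and -0.12 on CAT-SKL and -0.43 and -0.06 on ADDL. In each treatment the first array was the lower, by 0.17 to 0.37, and no mean change passed. Dao lay between -0.20 and 0.09 and Uox between -0.11 and 0.06. With the deposited log ratios Dao was at -0.58 after CAT-SKL+ADDL and 0.34 after CAT-SKL, and Uox at -0.45 after CAT-SKL and -0.87 after ADDL. Pipox was then at -0.73 after CAT-SKL+ADDL, -0.55 after CAT-SKL and -0.68 after ADDL, the same direction as with loess. Of the transporters, Abcd2, a carrier of very long acyl chains, lay between -0.05 and 0.03, and Slc25a17, a carrier of cofactors, between -0.15 and 0.05. Abcd3, which carries branched acyl chains and is the main protein of the peroxisomal membrane, had the widest gap between arrays of the 35 genes. It was at -1.32 on the first ADDL array and 0.07 on the second, and between -0.21 and 0.00 on the 6 other arrays. Both spots of its single probe were low on the first ADDL array, at -1.30 and -1.34, with 1396 and 1615 in Cy5, against 3676 and 4348 for vehicle, and neither was flagged. The ADDL mean of -0.63 ± 0.25 (limma, adjusted p = 0.23) therefore rests on 1 array.

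Import factors and enzymes lay close together, with a difference that depended on the scaling. The median of the 12 import factors was 0.04 after ADDL+CAT-SKL, against 0.01 for the 20 enzymes. After CAT-SKL+ADDL the medians were 0.02 for import factors and 0.03 for enzymes, after CAT-SKL 0.00 and 0.01, and after ADDL 0.04 and -0.01. The difference, import factors minus enzymes, was 0.02 after ADDL+CAT-SKL, -0.01 after CAT-SKL+ADDL, -0.01 after CAT-SKL and 0.05 after ADDL. Single arrays gave differences between -0.05 and 0.07, and the SD between single arrays of a treatment was 0.0494 with loess (CAT-SKL+ADDL left out). No difference with loess exceeded that SD, but the differences are of means of 2 arrays, which vary less than single arrays. The comparison therefore does not decide whether the groups were set apart. With median centring the difference was 0.09 after ADDL+CAT-SKL, 0.11 after CAT-SKL+ADDL and 0.05 after CAT-SKL, so that its sign turned after CAT-SKL+ADDL and CAT-SKL. The first 2 values were larger than the SD with loess, and no SD was computed with median centring. The deposited log ratios gave -0.03 after ADDL+CAT-SKL and -0.07 after CAT-SKL. At an unadjusted p below 0.05, 3 import factors were higher and 0 lower after ADDL+CAT-SKL, CAT-SKL+ADDL and CAT-SKL, and 2 were higher and 1 lower after ADDL. The division factor Pex11a was among the 3 after ADDL+CAT-SKL. Among the enzymes the counts were 1 higher and 1 lower after ADDL+CAT-SKL, 3 and 1 after CAT-SKL+ADDL, 3 and 3 after CAT-SKL and 2 and 2 after ADDL. The share of all genes at that p was 7.99% higher and 9.62% lower after ADDL+CAT-SKL, 5.35% and 5.97% after CAT-SKL+ADDL, 9.6% and 11.6% after CAT-SKL, and 9.84% and 9.16% after ADDL.

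**Figure D4:**
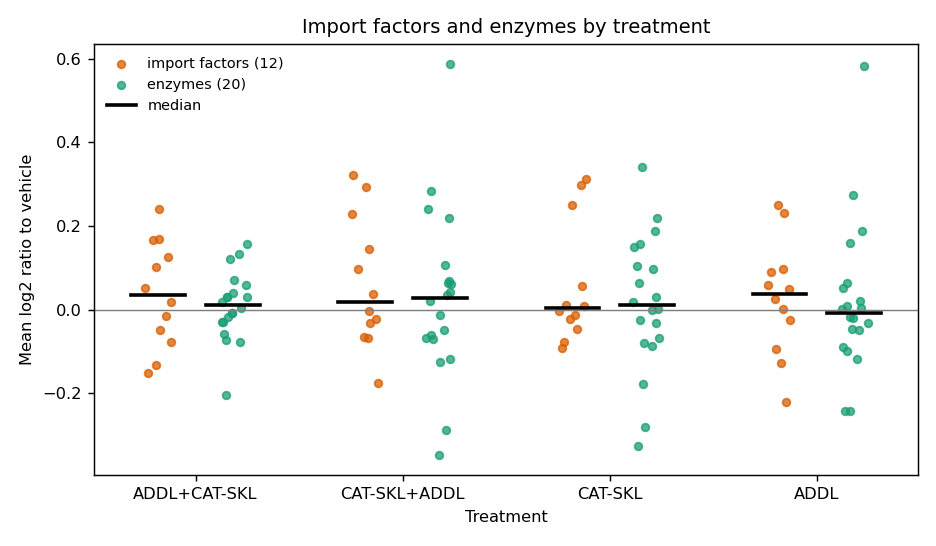
Mean log2 ratio to vehicle of each of 12 import factors (orange) and 20 enzymes (green) in the 4 treatments; each point is a gene and the black line is the group's median. The medians lie between -0.01 and 0.04 in every treatment while single genes spread from -0.35 to 0.59.

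Signs shared by all arrays were read across treatments. Of the 35 genes, 6 (Pex3, Pex7, Pex13, Scp2, Hacl1 and Crot) were above 0 on all 8 arrays, where 7.46% of all genes were, and 1 (Far1) was below 0 on all 8. Under 3 other scalings of the arrays, Pex7, Scp2 and Hacl1 kept all 8 arrays above 0. Pex3 and Crot had 7 above 0 with median centring, and Pex13 had 7 with the log ratios deposited by the authors. Far1 stayed below 0 on all 8 arrays with the deposited log ratios, but on 7 with median centring and on 6 with no background correction. Treated signals of the 6 genes varied more between arrays than vehicle signals did. The SD of the normalised log2 signal was 0.28 in Cy5 and 0.09 in Cy3 for Crot, 0.13 and 0.05 for Pex13, 0.12 and 0.06 for Pex7, 0.11 and 0.08 for Hacl1, 0.10 and 0.03 for Scp2 and 0.09 and 0.04 for Pex3, with medians of 0.09 (Cy5) and 0.06 (Cy3) over all genes. Crot and Hacl1 thus varied more than the median gene in vehicle too.

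The treatments were also compared with one another, where the dye effect of a probe cancels, and vehicle too if the same vehicle RNA was on every array, which the labels do not say. Values are the log2 change of the treatment named first minus that of the second. No peroxisomal gene passed in any of these comparisons, which share the ADDL arrays. Between ADDL+CAT-SKL and ADDL 0 of 35 passed (0% of all genes), and 3 of 35 had an unadjusted p below 0.05, where 8.45% of all genes had. These 3 were Pex2 (-0.23 ± 0.08), Crot (-0.45 ± 0.17) and Ech1 (-0.25 ± 0.10), each with an adjusted p of 0.57 (limma), and each lower after ADDL+CAT-SKL. Their arrays did not overlap between ADDL+CAT-SKL and ADDL, which held for 12 of the 35 genes (5 higher, where 19% of all genes were, and 7 lower, where 20.7% were). Between CAT-SKL+ADDL and ADDL 0 of 35 passed (0% of all genes), 0 had an unadjusted p below 0.05 (3.9% of all genes), and the smallest p-values were those of Pex2 (0.23 ± 0.10), Abcd3 (0.53 ± 0.44) and Pex3 (0.09 ± 0.09), each with an adjusted p of 0.999 (limma). The Abcd3 value turns to -0.16 without the first ADDL array. Between CAT-SKL and ADDL 0 of 35 passed (0% of all genes), 0 had an unadjusted p below 0.05 (8.7% of all genes), and the smallest p-values were those of Decr2 (0.20 ± 0.10), Acaa1a (-0.15 ± 0.08) and Pex2 (0.15 ± 0.08), with adjusted p-values (limma) between 0.62 and 0.655. Acaa1a turns to 0.04 with median centring.

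Pex2 was then set between the sequential treatments and CAT-SKL in comparisons chosen after its values were seen. It was lower after ADDL+CAT-SKL than after CAT-SKL+ADDL by a log2 difference of -0.46 ± 0.10 (limma, adjusted p = 0.86). In that comparison 0 of 35 genes passed (0% of all genes), and 2 of 35 had an unadjusted p below 0.05, where 5.65% of all genes had. Against CAT-SKL alone the difference of ADDL+CAT-SKL was -0.38 ± 0.08 (limma, adjusted p = 0.446). There 0 of 35 genes passed (0% of all genes), and 7 of 35 had an unadjusted p below 0.05, where 10% of all genes had. Between CAT-SKL+ADDL and CAT-SKL 0 of 35 passed (0% of all genes), and 0 of 35 had an unadjusted p below 0.05 (0.392% of all genes).

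Several genes were read by more than 1 probe: 44 probes covered the 35 genes, with 4 for Pex19, 3 for Agps and 2 each for Pex5, Pex14, Acaa1a and Hacl1. Both Pex5 probes were below vehicle in every treatment, the dimmer one by more, at -0.10 after ADDL+CAT-SKL, -0.30 after CAT-SKL+ADDL, -0.26 after CAT-SKL and -0.35 after ADDL. Both Hacl1 probes had means above vehicle in every treatment. The dimmer one was at 0.135 after ADDL+CAT-SKL, 0.205 after CAT-SKL+ADDL, 0.132 after CAT-SKL and 0.112 after ADDL. ADDL thus had the highest mean by the brighter probe and the lowest by the dimmer one, which was at -0.009 on the second CAT-SKL array. All 3 Agps probes were below vehicle in every treatment, but after CAT-SKL+ADDL they ranged from -0.36 to -0.06. After ADDL the brightest was at -0.24 and the others at -0.08 and -0.12, both above 0 on the first ADDL array. The Pex14 probes differed in sign after ADDL+CAT-SKL (0.13 for the brighter and -0.07 for the dimmer). Of the Pex19 probes, 3 were at or below 0 in every treatment, while the 1 designed on another transcript accession was at 0.14 after ADDL+CAT-SKL, 0.09 after CAT-SKL+ADDL, -0.02 after CAT-SKL and 0.21 after ADDL. The Acaa1a probes differed in sign after CAT-SKL+ADDL (0.02 for the brighter and -0.12 for the dimmer) and after ADDL (0.06 and -0.03).

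**Figure D5:**
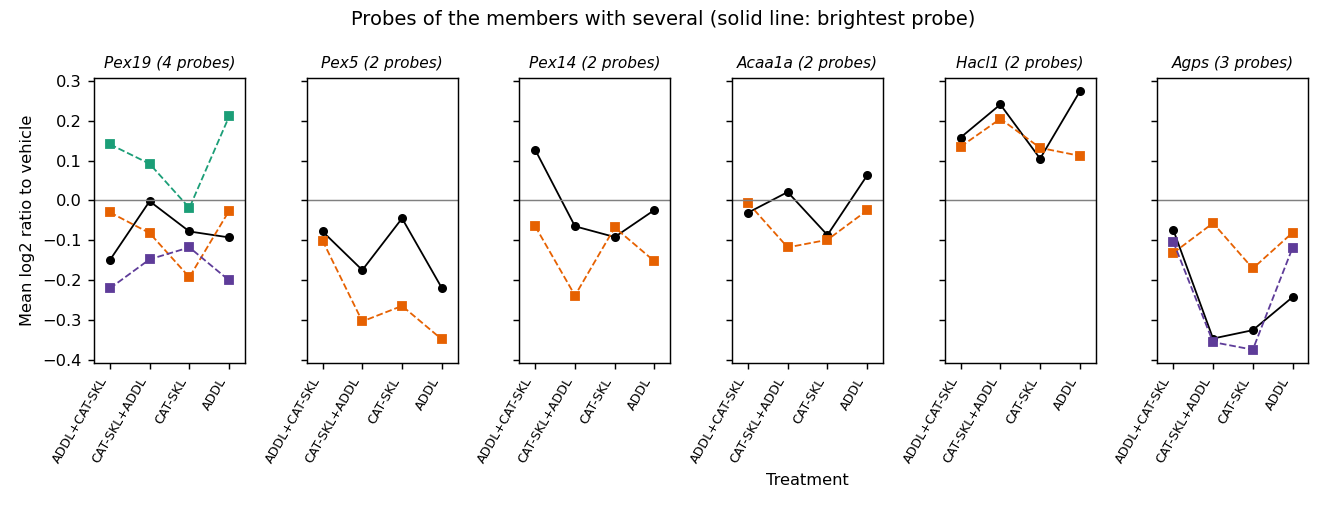
Mean log2 ratio to vehicle per treatment for every probe of the 6 genes with several probes; the solid black line is the brightest probe, which stands for the gene, and dashed lines are the others. Probes of Pex5, Hacl1 and Agps share their sign in every treatment, whereas 1 probe of Pex19 runs above the other 3.

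Other peroxisomal genes also lay near vehicle. Of 41 other peroxisomal genes 34 were measured, and 0 passed against vehicle in any treatment. Their medians were -0.01 after ADDL+CAT-SKL (range -0.20 to 0.20), -0.01 after CAT-SKL+ADDL (-0.41 to 0.50), -0.01 after CAT-SKL (-0.26 to 0.32) and -0.01 after ADDL (-0.22 to 0.36). At an unadjusted p below 0.05 the counts were 1 higher and 1 lower after ADDL+CAT-SKL, 4 and 1 after CAT-SKL+ADDL, 5 and 4 after CAT-SKL and 4 and 0 after ADDL. In the same order, the shares of all genes were 7.99% and 9.62%, 5.35% and 5.97%, 9.6% and 11.6%, and 9.84% and 9.16%. Pxmp2, a channel protein of the peroxisomal membrane, had the smallest p in 3 treatments. It was at -0.08 and -0.11 on the ADDL+CAT-SKL arrays, 0.48 and 0.53 on CAT-SKL+ADDL, 0.37 and 0.11 on CAT-SKL and 0.40 and 0.32 on ADDL. Only the ADDL+CAT-SKL arrays were below 0, as for Pex2. Its mean changes were 0.50 ± 0.10 after CAT-SKL+ADDL (adjusted p = 0.201), 0.24 ± 0.07 after CAT-SKL (adjusted p = 0.0983) and 0.36 ± 0.07 after ADDL (limma, adjusted p = 0.0723). Next by p stood Gstk1, a glutathione transferase, at 0.32 ± 0.10 after CAT-SKL and 0.27 ± 0.10 after ADDL, and Pecr, a trans-enoyl-CoA reductase, at 0.25 ± 0.08 after CAT-SKL+ADDL. After ADDL+CAT-SKL the smallest p-values were those of Abcd4 (0.20 ± 0.06) and Trim37 (-0.20 ± 0.08).

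Regulators and division genes did not pass either. All 8 genes for PPAR and RXR factors and their coactivators, which drive peroxisomal genes in rodent liver, were measured, with medians between -0.03 and 0.03 and 0 passing in any treatment. The division proteins that peroxisomes share with mitochondria (Dnm1l, Fis1, Mff and Gdap1) were all 4 measured, and 0 passed. Fis1, a membrane anchor of the division machinery, had the smallest p of the 4 after ADDL+CAT-SKL, at -0.18 and -0.25 on the ADDL+CAT-SKL arrays, a mean change of -0.21 ± 0.05 (limma, adjusted p = 0.113). Its values on the 6 other arrays lay between -0.11 and -0.02. After ADDL+CAT-SKL Gdap1 stood next, at 0.11. The smallest p-values of the 4 belonged to Gdap1 (0.09) and Fis1 (-0.06) after CAT-SKL+ADDL, to Fis1 (-0.07) and Gdap1 (0.07) after CAT-SKL, and to Dnm1l (-0.14) and Mff (-0.06) after ADDL.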

How the data were processed

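The authors deposited scanner files that hold spot intensity (median pixel brightness and local background in each channel) and a log10 ratio of red over green, made with Agilent Feature Extraction 11.5, as given in the submitters' processing notes. A deposited table of the whole series repeats these log10 ratios, already corrected for background and dye, to within 0.005, and was an alternative. Deposited spot flags are 0 or 1.

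Median intensities were corrected with normexp (offset 50) and loess in limma 3.58.1 (R 4.3.3), with control spots at weight 0 and spots flagged as outliers omitted. Probes were tested if well above background in 1 channel or both on 2 or more of the 8 arrays (25363 of 30367 probes, of which 67 lacked a value and were left out). The brightest tested probe stood for a gene, and accessions were named through the RefSeq table of GRCr8. Mean log2 changes, standard errors and p-values came from lmFit and eBayes over 7 samples, with Benjamini-Hochberg adjustment over 22459 genes. The code was tested on simulated data.

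The genes, lists and alternatives were chosen with earlier results of these data known. Full statistics went to genes that passed or, failing that, to the 4 with the smallest p against vehicle and the 3 between treatments, and further genes are given where they share a role. Of the other peroxisomal genes and the division genes, the 2 with the smallest p per treatment are named. Alternatives were 8 separate samples, median centring, the deposited log ratios, no background correction, no filter or a stricter one, the mean of a gene's probes, the replicate number as a block, and each array left out. Protein sequences were not used here.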

Additional observations from a re-analysis of the deposited data

How the results depend on the processing

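The count of peroxisomal genes that passed depended on the processing. With the CAT-SKL+ADDL arrays as separate samples it was 7 after CAT-SKL+ADDL, 4 after CAT-SKL and 3 after ADDL, where 10.3%, 8.08% and 4.34% of all genes passed. With median centring it was 1 after CAT-SKL+ADDL (Crot), 5 after CAT-SKL and 2 after ADDL (Crot, and Abcd3 lower), where 1.36%, 8.01% and 1.83% of all genes passed. After CAT-SKL it was 2 of 31 tested with the stricter filter (Pex13 and Pex7), where 4.69% of all genes passed. It was 0 with the deposited log ratios (0% of all genes), no background correction (1.82%), no filter (1.04%) or the replicate block (0.0623%). In these, in the same order, Pex13 had an adjusted p (limma) of 0.234, 0.0565, 0.0505 and 0.0797. With 1 array left out a treatment can rest on a lone sample, so only changes are given here. Pex13 after CAT-SKL ranged from 0.24 to 0.38 and Crot after ADDL from 0.44 to 0.72. Abcd3 after ADDL was at -1.32 without the second ADDL array. After ADDL+CAT-SKL against vehicle, and in every comparison between treatments, the count that passed was 0 under each alternative that kept all 8 arrays. At most 3.98% of all genes passed there. The block changed no other count. Replicate numbers gave no sign of pairing, since the differences between arrays 1 and 2 of a treatment correlated across genes at -0.202 to 0.078 between treatments.

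The median of import factors minus that of enzymes became 0.091 after ADDL+CAT-SKL, 0.114 after CAT-SKL+ADDL and 0.048 after CAT-SKL with median centring, and -0.03 after ADDL+CAT-SKL and -0.069 after CAT-SKL with the deposited log ratios. With 1 array left out it ranged from 0.018 to 0.025 after ADDL+CAT-SKL, from -0.034 to 0.001 after CAT-SKL+ADDL, from -0.048 to 0.046 after CAT-SKL and from -0.004 to 0.072 after ADDL. Of 24 changes of single genes, 2 turned: Acaa1a between CAT-SKL and ADDL (0.042 with median centring) and Abcd3 between CAT-SKL+ADDL and ADDL (-0.162 without the first ADDL array, range to 1.224). With the deposited log ratios, the mean of 8 of the 35 genes (Pex26, Acox2, Ehhadh, Decr2, Far1, Dao, Uox and Pipox) moved by more than 0.3 in at least 1 treatment, against 0 with median centring and 0 without background correction. The causes were not tested. The small number of arrays, signals near background for Ehhadh and Dao, and the absence of a dye swap limit all values.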
